A study of Mus musculus with 2 samples.

Results

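The miR-297, miR-466, miR-467 and miR-669 families are runs of near-identical microRNA (miRNA) hairpins that lie in 1 intron of Sfmbt2. Members were chosen by symbol, from hairpins of the GENCODE mouse annotation that begin with Mir297, Mir466, Mir467 or Mir669, and by reads of 18 nt or more that lay in them in sense without mismatch. The rule took 81 of the 2199 annotated hairpins, 71 of them inside Sfmbt2 and 10 elsewhere. The reads were compared between a small RNA library of Dicer -/- cells, called null here, and one of Dicer f/f cells. Both came from immortalized monoclonal lines of mouse mesenchymal stem cells (MSCs), a fibroblast-like cell of adult bone marrow, of C57BL/6 strain, so each genotype rested on 1 clone and 1 library. The f/f cells carry floxed alleles that the labels treat as wild type, and the deleted exon is not stated there. Reads that fit several hairpins were kept as 1 shared species, which carries the names of all those hairpins and its arm (5p or 3p, the side of the hairpin's midpoint it fell on). This gave 109 member species.

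Most miRNAs are cut from hairpins in 2 steps: the nuclear enzyme Drosha frees the hairpin from its transcript, and Dicer then cuts off the loop. Drosha sets the 5′ end of the 5p arm and the 3′ end of the 3p arm, while Dicer sets the ends that face the loop. Bases 2 to 8 of a mature miRNA, the seed, are the main determinant of which mRNAs it pairs with. Sfmbt2 encodes a polycomb-group protein, is imprinted and expressed from the paternal allele in early mouse embryos and placenta, and its rodent-specific intronic miRNA array is known from mouse embryonic stem cells and placenta.

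Hairpins of the miR-669 and miR-466 families are shown first, because reads from the null library ran into their loops. In each, capitals mark the commonest f/f read of the 5p arm and, after the loop, that of the 3p arm. Positions are GRCm38 positions of the annotation on the plus strand of chromosome 2, and the letters are those of the annotated transcript written as RNA, 5′ to 3′.
Mir669a-1 (chr2:10476853-10476949): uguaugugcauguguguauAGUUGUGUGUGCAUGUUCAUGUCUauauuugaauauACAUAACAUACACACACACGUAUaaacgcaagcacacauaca
Mir466c-1 (chr2:10481534-10481617): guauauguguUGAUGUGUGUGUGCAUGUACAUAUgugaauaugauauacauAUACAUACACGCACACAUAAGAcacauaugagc
The loop between the 2 commonest f/f reads was 12 nt long in Mir669a-1 and 17 nt in Mir466c-1.

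The mature forms below are the commonest f/f reads of 9 of the 10 member species with most f/f reads and of miR-466c-5p, the 1 species called higher in null by CPM. Capitals mark bases 2 to 8, the seed, and the deposited letters are written as RNA.
miR-669a/miR-669p-5p: aGUUGUGUgugcauguucaugucu
miR-467c-5p: uAAGUGCGugcauguauaugug
miR-669a/miR-669o-3p: aCAUAACAuacacacacacguau
miR-466/miR-466b/miR-466c/miR-466e/miR-466p-3p: aUACAUACacgcacacauaaga
miR-467d-5p: uAAGUGCGcgcauguauaugcg
miR-669o-5p: aGUUGUGUgugcauguuuaugugu
miR-669b/miR-669m-5p: aGUUUUGUgugcaugugcaugug
miR-669c-5p: aUAGUUGUguguggauguguguau
miR-669l-5p: aGUUGUGUgugcauguauaugu
miR-466c-5p: uGAUGUGUgugugcauguacauau
The 5p forms were rich in UG steps and the 3p forms in CA steps. UGUGUG lay on the 5p side of 76 of the 81 hairpins (93.8%), against 36 of 1093 other hairpins with a Mir symbol (3.29%). CACACA lay on the 3p side of 70 of the 81 hairpins (86.4%), against 1.83% of the others. Both motifs were searched on the sense strand only, and a match describes the letters and no site.

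Sequencing gave 6291599 null reads (909932 distinct) and 9943989 f/f reads (410792 distinct), of 5 to 36 nt. Annotated miRNA hairpins took 2.17% of null reads and 59.6% of f/f reads. Levels are counts per 1000000 reads of the library (CPM), and a count of 0 allows up to 0.477 CPM in null and 0.302 CPM in f/f (3 counts). No difference below has a replicate check or a test, because each genotype was sequenced in 1 library. Intervals in brackets are at 95% and cover counting alone, and copies made by PCR make even that too narrow. From Dicer1, the gene deleted in null, came 44 null and 16 f/f reads that matched exons and no small RNA gene, which do not check the genotype. A list of 11 mesenchymal miRNA hairpins (among them Mir21a, Mir143 and Mir214) summed to 5130 CPM in null and 212690 CPM in f/f. Lists of other cell types stood at 75 null and 36 f/f reads for blood, 13 and 333 for endothelium, 285 and 37 for epithelium, 8 and 2237 for muscle, 15 and 998 for neural cells, 22 and 18 for liver and 4 and 3 for pluripotent cells, and their part in the results was not tested. In f/f, miR-206-3p alone gave 2236 reads of the muscle list and miR-128-3p alone 932 of the neural list.

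Of the 71 hairpins inside Sfmbt2 (GRCm38 chromosome 2, 10370510 to 10595253, plus strand), every one lay in the intron from 10461473 to 10523944, 62.5 kb long, and 0 overlapped an exon. They spanned 51.6 kb of it, from Mir466m to Mir669h. The order was repetitive: 10 units of Mir467a or Mir467b, then a Mir466 hairpin, then Mir669a or Mir669p were annotated, at a median spacing of 2457 bp (2413 to 4911 bp). The run was not unbroken: Mir669g and Mir669j lay between the first units, and Mir467a-6 with Mir669a-8 lacked an annotated Mir466 hairpin between them. Within a unit the Mir466 hairpin started 288 bp and the Mir669 hairpin 517.5 bp after the Mir467 hairpin (medians). Of the 71 hairpins, 26 had the same sequence as another annotated hairpin. The miR-669 family had 30 hairpins (29 inside Sfmbt2), the miR-466 family had 28 (23 inside), the miR-467 family had 17 (14 inside) and the miR-297 family had 6 (5 inside).

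Because of this repetition, 28.9% of null and 36.3% of f/f member reads fitted exactly 1 hairpin. A read of its own was found for 23 hairpins in null and for 33 in f/f, and Mir669g and Mir669n had no fitting read in either library. Among the 30 hairpins of the tandem units, 2 had a read of their own in either library, so which copy within the units was read could not be told. Of the member reads, 3884 in null and 26336 in f/f fitted hairpins inside Sfmbt2 only, and 44 in null and 225 in f/f fitted only the hairpins elsewhere. Exons of Sfmbt2 had 7 null reads and 1 f/f read. A further 48 annotated hairpins inside Sfmbt2, all with Gm symbols, added 34 null and 42 f/f reads that fitted no member.

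**Figure D1:**
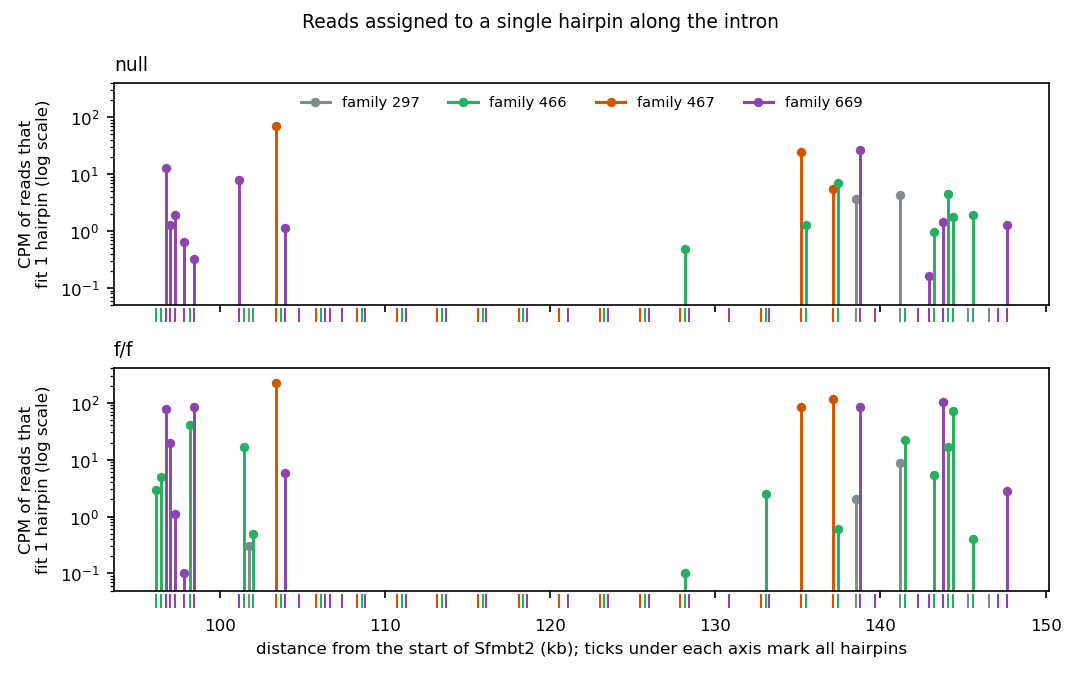
Reads that fit a single hairpin, in CPM on a log scale, for null (top) and f/f (bottom), against the distance in kb of the 71 hairpins from the start of Sfmbt2. Ticks under the axes mark the hairpins, coloured by family. The stretch of tandem units in the middle has almost no reads of a single hairpin, and Mir467c carries the highest stem in both panels.

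Summed over the 4 families, member reads numbered 3939 in null (626 CPM) and 27391 in f/f (2755 CPM). The sum was thus 4.40-fold lower in null (4.26 to 4.55). All other miRNA reads together were 28.2-fold lower (28.0 to 28.3), so the families made up 2.89% of miRNA reads in null (2.80 to 2.98) and 0.462% in f/f (0.457 to 0.468). For scale, let-7 and miR-98 were 81.2-fold lower, the miR-30 family 31.2-fold, miR-17-92 with its paralogs 14.8-fold and the miR-15/16 family 14.1-fold. In bulk RNA, fewer cells that make an RNA and less of it per cell cannot be told apart.

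The families differed in size and in ratio. The miR-669 family had 1670 null and 15448 f/f reads and was 5.85-fold lower in null (5.56 to 6.16). The miR-467 family had 820 null and 5825 f/f reads and was 4.49-fold lower (4.18 to 4.84). The miR-466 family had 1371 null and 5331 f/f reads and was 2.46-fold lower (2.32 to 2.61). The miR-297 family was the smallest, with 54 null and 569 f/f reads, 6.67-fold lower (5.04 to 8.99). Without miR-466c-5p the sum over all families was 5.94-fold lower, against 4.40-fold with it.

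The 2 arms stood far apart. On the 5p arm the families had 3885 null and 21888 f/f reads, 3.56-fold lower in null (3.44 to 3.69). On the 3p arm they had 54 null and 5503 f/f reads, 64.5-fold lower (49.3 to 85.9). Thus 98.6% of null member reads lay on the 5p arm, against 79.9% of f/f member reads. The same order held for all other miRNAs, whose 5p reads were 22.3-fold and 3p reads 73.6-fold lower in null. Over all lengths together, the 3p ratio of the families was near that of other miRNAs. For 3p reads of 18 to 23 nt it was not: the families were 88.4-fold lower (64.6 to 124.5) and other miRNAs 183-fold (179 to 188).

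Of the 29 member species that reached 100 f/f reads, 28 were lower in null by more than 2-fold and 1 was higher by more than 2-fold. Over all 295 miRNA species of that depth 89.8% were lower and 4.07% higher by this rule, so the count of lower members was near the background. The median log2 ratio of null over f/f was -4.94 for the members and -5.18 for all 295 species, with species at 0 null reads set at the floor of 3 counts. Of the 29 members, 19 were more than 10-fold lower and 7 had 0 null reads, against 75.6% and 12.2% of all 295 species. Medians were -3.92 for the 20 members on the 5p arm and -5.56 for the 9 on the 3p arm, against -4.51 for all 162 5p species and -6.38 for all 133 3p species. The sum over reads was lower by less than the median species, and the 3 members of the 5p arm with most f/f reads were 4.19-, 3.24- and 4.94-fold lower. The scale matters for every such value: per read matched to an annotated transcript all log2 ratios shift by 1.75, and 20 of the 29 members were then more than 2-fold lower and 1 higher, against 80.3% lower and 9.49% higher of all 295 species. Per snoRNA and snRNA read they shift by -2.12, and all 29 were more than 2-fold lower and 0 higher, against 96.3% and 1.36% of all 295 species.

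**Figure D2:**
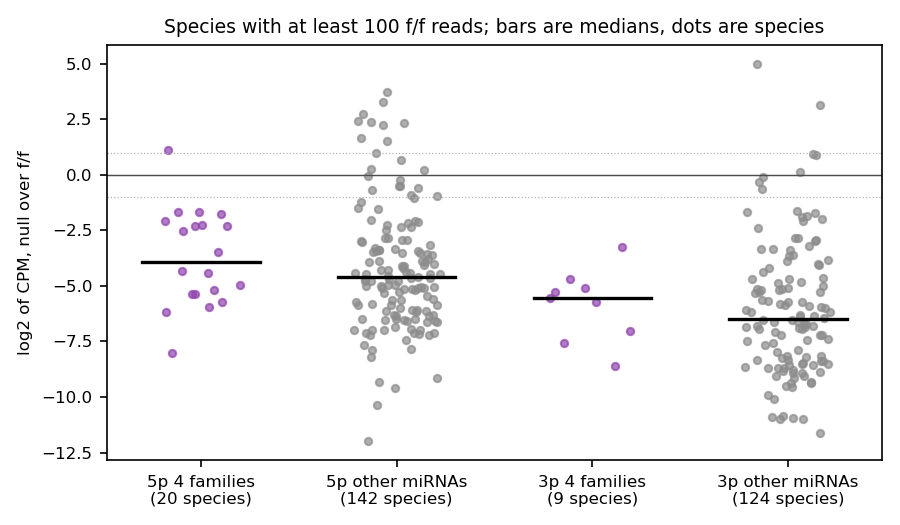
Log2 of the CPM ratio, null over f/f, for each species with at least 100 f/f reads, split by arm and by membership of the 4 families. Dots are species, bars medians and dotted lines the 2-fold limits. Member medians lie at -3.92 (5p) and -5.56 (3p), above the -4.61 of 142 other 5p species and the -6.49 of 124 other 3p species, with broad overlap.

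The miR-669a hairpins led in both libraries. MiR-669a/miR-669p-5p, shared by 16 hairpins, had 1219 null reads (194 CPM) and 8064 f/f reads (811 CPM), 4.19-fold lower in null (3.94 to 4.45). Its partner on the other arm, miR-669a/miR-669o-3p, had 7 null reads (1.11 CPM) and 2112 f/f reads (212 CPM), 191-fold lower (92.5 to 475). So in null the 5p product of these hairpins was well counted and the 3p product was rare.

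Other miR-669 members ranged widely in ratio. MiR-669c-5p had 164 null reads (26.1 CPM) and 837 f/f reads (84.2 CPM), 3.23-fold lower (2.73 to 3.84). MiR-669b/miR-669m-5p had 15 null reads (2.38 CPM) and 971 f/f reads (97.6 CPM), 41.0-fold lower (24.7 to 73.5). MiR-669o-5p had 9 null reads (1.43 CPM) and 1024 f/f reads (103 CPM), 72.0-fold lower (37.8 to 158). MiR-669l-5p had 2 null reads (0.318 CPM) and 825 f/f reads (83.0 CPM), 261-fold lower (72.0 to 2159). MiR-669a, miR-669p, miR-669o, miR-669l and miR-669f share the seed GUUGUGU in their commonest f/f 5p forms. Member 5p reads with these letters at bases 2 to 8 numbered 1269 in null and 10013 in f/f, 4.99-fold lower in null (4.71 to 5.30).

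Of the miR-467 family 5 species reached 100 f/f reads, and their ratios differed widely. MiR-467c-5p, from 1 hairpin, had 431 null reads (68.5 CPM) and 2209 f/f reads (222 CPM), 3.24-fold lower (2.92 to 3.60). MiR-467a/miR-467b-5p, shared by 12 hairpins, had 177 null reads (28.1 CPM) and 1382 f/f reads (139 CPM), 4.94-fold lower (4.22 to 5.81). MiR-467d-5p had 34 null reads (5.40 CPM) and 1136 f/f reads (114 CPM), 21.1-fold lower (15.0 to 30.7). On the other arm miR-467a/miR-467d-3p had 0 null and 249 f/f reads, at least 52.5-fold lower. MiR-467a, miR-467b, miR-467c and miR-467d begin alike: bases 2 to 7 are AAGUGC in all of them, as in miR-290a-3p, miR-291a-3p, miR-294-3p and miR-295-3p of the RefSeq entries, which are miRNAs of mouse embryonic stem cells.

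The f/f library had 5121 miRNA reads with AAGUGC at bases 2 to 7, and the miR-467 species gave 3396 of them (66.3%), followed by miR-93-5p with 761 reads and miR-17-5p with 351. In null there were 2730 such reads, of which miR-467 species gave 563 (20.6%) and miR-350-5p 2081. So in f/f cells most reads with AAGUGC at exactly bases 2 to 7 came from Sfmbt2 hairpins. The reads counted for miR-93-5p and miR-17-5p were few of their 36541 and 24041 f/f reads. AAGUGC at any other position of a read was not counted.

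MiR-466c-5p was the member called higher in null. It had 1109 null reads (176 CPM) and 811 f/f reads (81.6 CPM), a ratio of 2.16 (1.97 to 2.37), but its log2 ratio, 1.11 by CPM, was -1.01 per snoRNA and snRNA read. It made up 28.2% of all member reads in null and 2.96% in f/f. Its 3p counterpart, miR-466/miR-466b/miR-466c/miR-466e/miR-466p-3p, is shared by 15 hairpins and had 2 null reads (0.318 CPM) and 1242 f/f reads (125 CPM), 393-fold lower (109 to 3248). MiR-466b/miR-466e/miR-466o-5p, with the seed GAUGUGU in its commonest f/f form, as in miR-466c-5p, had 3 null and 291 f/f reads, 61.4-fold lower (20.8 to 299). So by CPM 2 species of the miR-466 family with the same seed stood on opposite sides of equality.

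The remaining 18 species with at least 100 f/f reads held 0 to 152 null reads and 111 to 817 f/f reads each, and every one was more than 2-fold lower in null. MiR-467e-5p had 152 null and 817 f/f reads (3.40-fold lower, 2.86 to 4.07). MiR-466h-5p had 11 null and 713 f/f reads (41.0-fold lower, 22.8 to 82.5). MiR-669d-5p had 61 null and 483 f/f reads (5.01-fold lower, 3.83 to 6.65). MiR-466f-3p had 0 null and 629 f/f reads, at least 133-fold lower, but 74.1% of those f/f reads also matched transcripts other than miRNA hairpins. The same held for 89.6% of f/f reads of miR-466g-3p and for all of miR-466q-5p, and these 3 species are uncertain as products of the hairpins. Over all members, 1.95% of null and 3.48% of f/f reads matched another transcript.

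Species under 100 f/f reads numbered 80. They held 420 null and 1084 f/f reads, 10.7% and 3.96% of the member reads. Among them miR-466-5p had most null reads, with 44 null and 6 f/f reads, and was named after its values were seen. MiR-297b-5p had 27 null and 88 f/f reads.

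**Figure D3:**
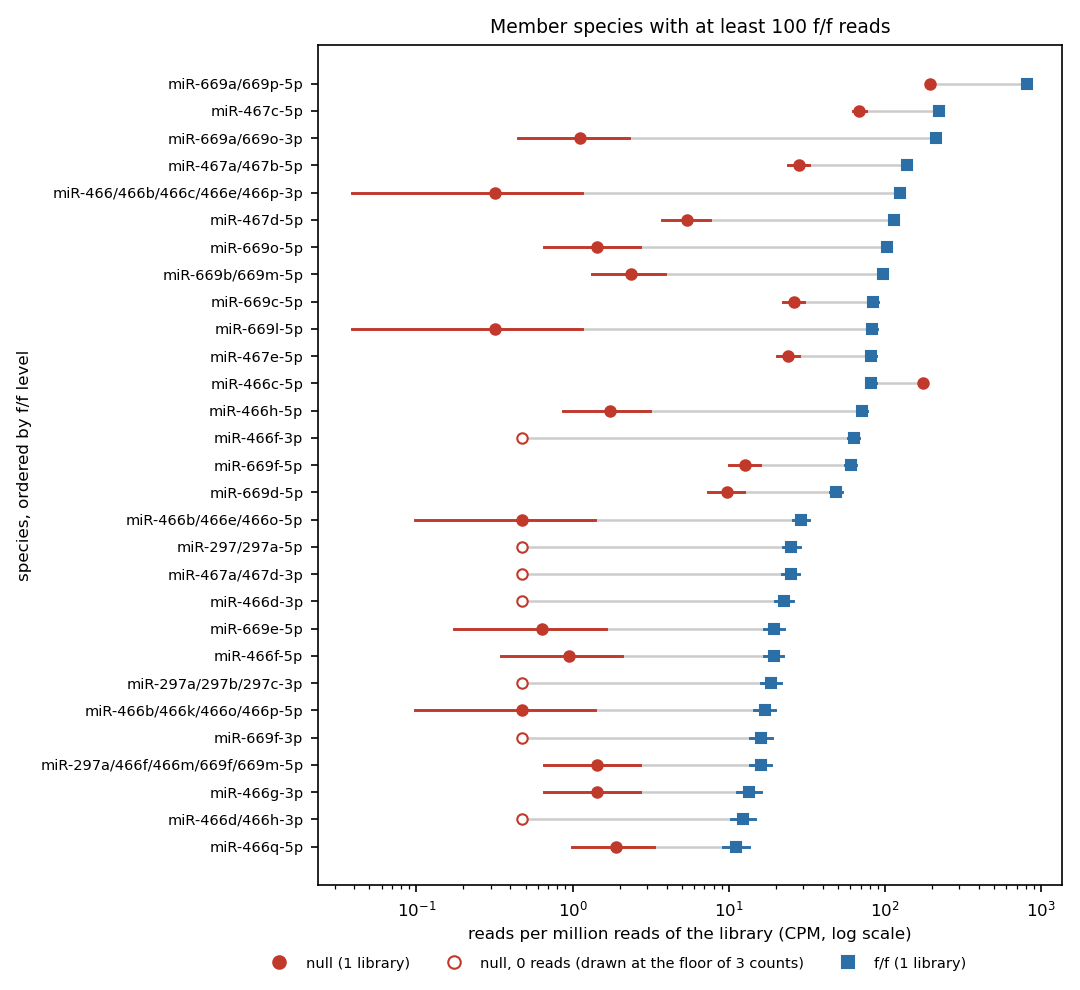
CPM of the 29 member species with at least 100 f/f reads in null (circles) and f/f (squares), on a log axis and ordered by f/f level, with 95% counting intervals as bars. Open circles mark 0 null reads, drawn at the floor of 0.477 CPM. All null circles lie left of their squares but that of miR-466c-5p, at 176 CPM in null and 81.6 CPM in f/f, an order that the snoRNA and snRNA scale turns round.

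Read length also differed between the 2 libraries. In null 78.0% of member reads (76.7 to 79.3) had 24 nt or more, against 29.8% in f/f (29.3 to 30.4). For all other miRNAs these shares were 73.7% in null and 2.70% in f/f. Member reads were thus long for miRNAs in f/f too. Of the miR-669 family 46.7% of f/f reads had 24 nt or more, against 0.704% of the miR-467 family. Without miR-669a/miR-669p-5p the f/f share was 14.3%, and the null share was 72.6%. Reads of 22 nt, the usual length of a miRNA, made up 3.40% of null and 38.6% of f/f member reads.

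A cut at 25 nt gave the clearer contrast. Reads of 25 nt or more numbered 2446 in null and 256 in f/f, 15.1-fold higher in null (13.3 to 17.2), whereas the same class over all other miRNAs was 6.93-fold higher. On the 5p arm alone the gap was smaller, 15.4-fold for the members (13.5 to 17.7) and 9.80-fold for all other miRNAs (9.59 to 10.0). Reads of 24 nt numbered 626 in null (99.5 CPM) and 7918 in f/f (796 CPM). Reads of 18 to 23 nt numbered 867 in null (138 CPM) and 19217 in f/f (1933 CPM). The log2 ratio of this last class was -3.81 for the members and -6.71 for all other miRNAs. With reads of 18 to 23 nt only, 28 of 29 members were lower by more than 2-fold and 0 higher, against 96.1% lower and 1.06% higher of 283 miRNA species. With reads of 24 nt or more, 6 of 7 members were lower and 1 was higher, against 72.4% lower and 19.7% higher of 76 miRNA species. The member within 2-fold at 18 to 23 nt was miR-466c-5p, with 346 null and 536 f/f reads and a log2 ratio of 0.03. Of these, 243 null and 9 f/f reads were a single 21-nt form that began 5 nt inside the commonest f/f form. That f/f form, of 24 nt, was 3.70-fold lower in null, with 47 null and 275 f/f reads.

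Reads of 36 nt, the longest length in the files and so inserts of at least that length, made up 15.3% of null member reads (601 reads) and 0.00365% of f/f member reads (1 read). For all other miRNAs the null share was 3.81%. The whole null library had 903323 reads of 36 nt among 6291599, a share near that of the members. In the f/f library they were 166598 of 9943989. MiR-466c-5p gave 294 of the null member reads of 36 nt and miR-669a/miR-669p-5p gave 99. Just below that length the deposited files are nearly empty, with 0 reads of 35 nt in either library, so the dip before 36 nt in member reads is a property of the files.

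**Figure D4:**
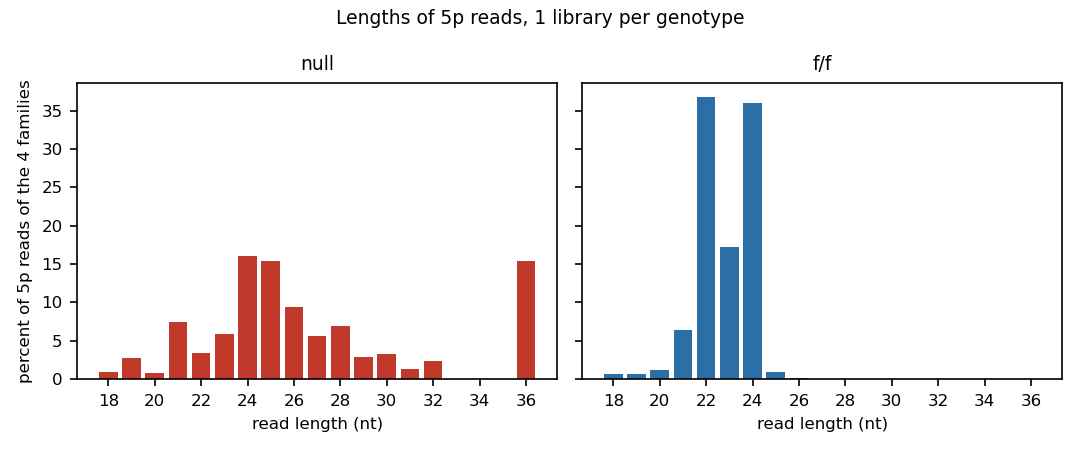
Percent of member reads on the 5p arm by read length in nt, null left and f/f right. The f/f reads stand at 22 nt (36.8% of them) and 24 nt, while the null reads spread from 21 to 32 nt with a peak of 15.4% at 36 nt.

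The leading forms of the miR-467 members showed the change base by base. For miR-467c-5p the 22-nt f/f form printed above had 0 null and 1036 f/f reads, at least 218-fold lower in null. The commonest null form began at the same base and ran 3 nt further, with 236 null and 3 f/f reads, 124-fold higher in null (42.0 to 607). The same pair for miR-467a/miR-467b-5p had 0 null and 1041 f/f reads at 22 nt, and 84 null reads and 1 f/f read at 25 nt. Commonest null forms of 5 members are printed with their seed in capitals.
miR-467c-5p in null: uAAGUGCGugcauguauaugugugu
miR-467e-5p in null: aUAAGUGUgagcauguauaugugugu
miR-669c-5p in null: aUAGUUGUguguggauguguguauuu
miR-669d-5p in null: aCUUGUGUgugcauguauaugugucu
miR-466c-5p in null: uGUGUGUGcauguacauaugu
Of these, the null form of miR-467e-5p (37 null and 0 f/f reads) began 1 nt before the commonest f/f form. The bases 2 to 8 of this null form were thus not those of the f/f form. Over all its reads, miR-467e-5p kept the f/f first base in 52.0% of 152 null and 50.7% of 817 f/f reads. The different seed is thus a feature of this form, and the species showed near-equal shares in both libraries. MiR-669c-5p showed 23 null and 2 f/f reads of its 26-nt null form, and 0 null and 619 f/f reads of its 24-nt f/f form. MiR-669d-5p had 18 null and 0 f/f reads of its 26-nt form.

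MiR-669a/miR-669p-5p was the exception among the abundant members. Its 24-nt form led in both libraries, with 464 null and 5311 f/f reads, 7.24-fold lower in null. Longer reads from the same 5′ end were also present in null: 172 of 26 nt, 92 of 28 nt, 68 of 30 nt, 44 of 32 nt and 97 of 36 nt. In f/f these lengths had 18, 2, 0, 0 and 0 reads.

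Null reads climbed in steps of 2 nt. Of the null reads that shared the f/f 5′ end and had 25 to 35 nt, even lengths made up 76.6% of 491 reads of miR-669a/miR-669p-5p and 96.2% of 210 reads of miR-466c-5p. Odd lengths made up all 255 such reads of miR-467c-5p and 97.6% of 123 of miR-467a/miR-467b-5p. In f/f, reads of these lengths numbered too few to compare, with 256 member reads of 25 nt or more in all.

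**Figure D5:**
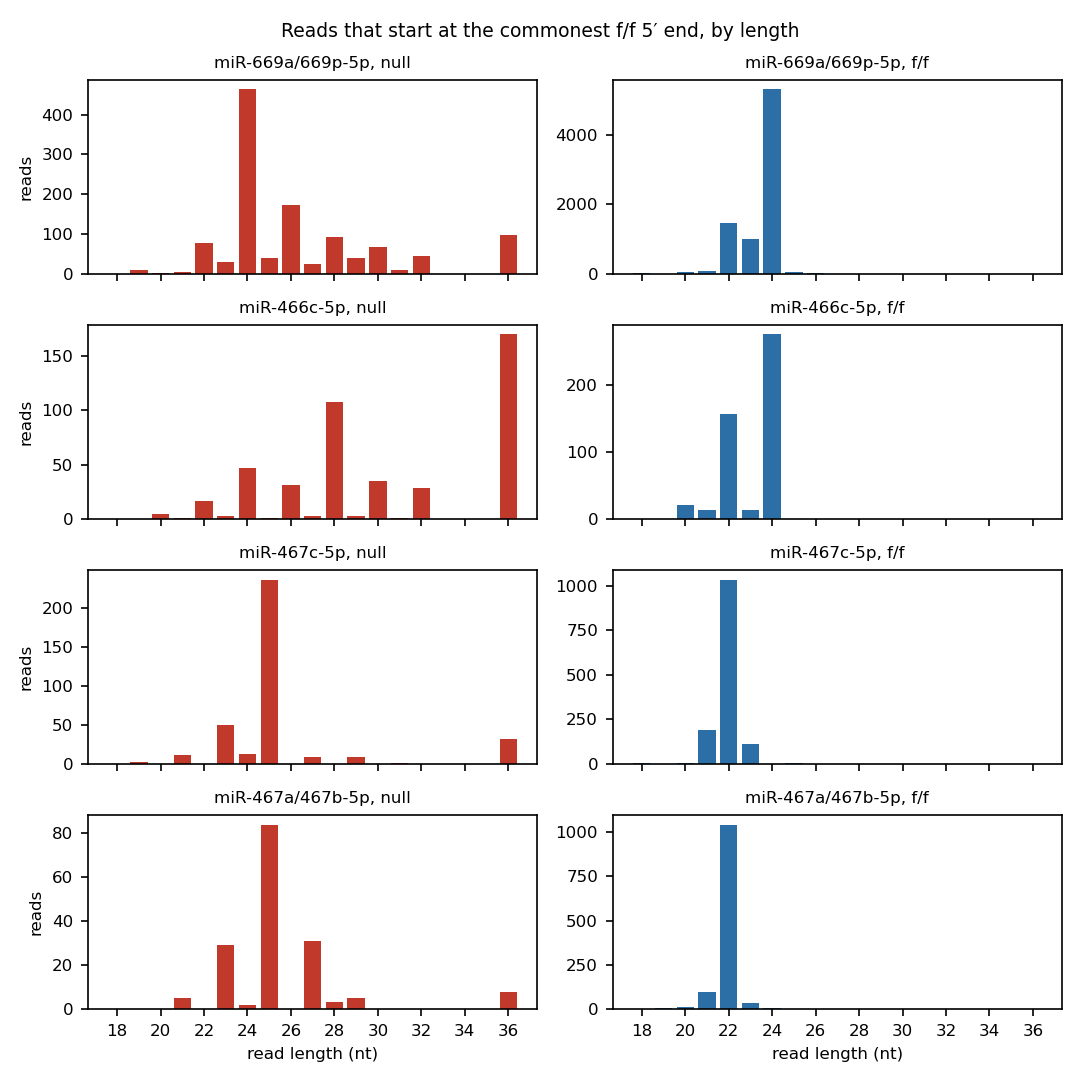
Reads that begin at the commonest f/f 5′ end, by length in nt, for 4 member species, null left and f/f right, each panel with its own count axis from 0. Null reads of miR-669a/miR-669p-5p and miR-466c-5p stand at even lengths and those of miR-467c-5p and miR-467a/miR-467b-5p at odd lengths, with 236 null reads of miR-467c-5p at 25 nt.

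The last base followed the same alternation. Of 1831 null 5p member reads of 25 to 35 nt, 1374 ended in U (a share of 73.0% to 77.0%) and 2.24% in G. The hairpin positions at which these reads could have ended were U in 47.4%, A in 38.5% and G in 12.8%. An end between U and A made up 48.6% of these reads (46.2 to 50.9), where such positions made up 21.8% of those available, and an end between A and U was read in 6.28%, where such positions made up 31.1%. For 5p reads of that length from all other miRNAs in null, 47.3% ended in U and 9.05% lay between U and A. The positions available to those reads were not counted, so these shares cannot show whether the preference for ends differed from that of the members.

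On the 5p arm the 5′ ends were kept better than the 3′ ends. Over the 20 member species of the 5p arm, 68.6% of 3501 null reads and 86.2% of 21246 f/f reads shared their first base with the commonest f/f read. For all other 5p miRNAs these shares were 94.7% in null and 98.4% in f/f. At the other end, 16.7% of null reads and 61.5% of f/f reads stopped at the commonest f/f 3′ end, and 75.3% of null reads and 7.24% of f/f reads ran past it. In the printed hairpins many of these ends lay in the loop. Without reads of 36 nt, whose true ends are unknown, 84.5% of null 5p reads of Mir466c-1 ended there, against 1.36% in f/f. In Mir669a-1 it was 44.1% of null reads, against 1.03% in f/f. Hairpins not printed could differ from this. In Mir466b-1 it was 95.5% of null but also 51.7% of f/f reads. In Mir669f the order was the other way, with 22.5% of null and 41.2% of f/f reads. On the 3p arm 0 of 18 null reads of the 9 member species had the f/f 5′ end, which allows a share of up to 18.5%, against 77.4% of 4841 f/f reads. The f/f 3′ end was kept by 9 of those 18 null reads and by 59.8% of the f/f reads. All 9 were of miR-466g-3p. These null reads matched no other annotated transcript, whereas 89.6% of the f/f reads of that species did, so the doubt about it rests on its f/f reads. Of the 7 null reads of miR-669a/miR-669o-3p and the 2 of miR-466/miR-466b/miR-466c/miR-466e/miR-466p-3p, 0 kept it.

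Several members had null reads that mostly began elsewhere, among them miR-466c-5p and miR-669f-5p. The commonest null read of miR-466c-5p, printed above with 243 null and 9 f/f reads, is 21 nt long and began 5 nt inside the f/f form. Reads of this species at the f/f 5′ end alone numbered 451 in null and 478 in f/f, a ratio of 1.49 (1.31 to 1.70), so at that end the species was within 2-fold. MiR-669f-5p had 80 null and 604 f/f reads and was 4.78-fold lower (3.78 to 6.11), but 69 of the null and 15 of the f/f reads ended at least 10 nt before the end of the f/f form, upstream of it. At its f/f 5′ end 11 null and 582 f/f reads were left, 33.5-fold lower (18.6 to 67.4). The 5′ end also changed miR-669c-5p, which was 8.38-fold lower at the f/f 5′ end (59 null and 781 f/f reads), against 3.23-fold over all its reads.

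Reads that matched a hairpin but for the last 1 to 3 bases were counted apart. They were 8.62% of null member reads under 36 nt, these and the exact reads together (7.73 to 9.58), against 19.3% in f/f (18.9 to 19.8). The mix of arms enters this contrast: on the 5p arm alone the shares were 8.60% in null and 15.8% in f/f. On the 3p arm they were 10.2% in null (6 of 59 reads) and 30.9% in f/f. Only U was added in 43.2% of the 315 null reads and in 19.3% of the 6564 f/f reads. Only A was added in 32.1% of null and 53.1% of f/f such reads. The shares of added bases were not split by arm. Sequencing errors in the last bases are counted with them.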

How the data were processed

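What the authors deposited are raw counts, with a table for each library, in which every distinct read stands beside its count, with no gene, position or strand. The labels say that Qiazol-extracted RNA was sized on a gel to 15 to 50 nt for Illumina's small RNA protocol. The build named in the submitters' processing notes is mm9, and trimming tool and aligner were not given in the sources used here. Groups were taken from the genotype label, and the meaning of the number that ends the null library's title is not stated.

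Reads of at least 18 nt were matched in sense, without mismatch, to GENCODE M21 transcripts (GRCm38). Arms followed the hairpin midpoint. CPM was taken over all reads of a file. Ratios have the exact conditional interval of 2 counts, shares the Clopper-Pearson interval and counts the Poisson interval, and a ratio against 0 reads uses 3 counts as a floor. Seeds of other miRNAs came from RefSeq. Named in full were the 10 species with most f/f reads and those not more than 2-fold lower in null, and single reads or species beside them were chosen after their values were seen. Members, lists and settings were chosen with earlier results of these data known. The sequence of 1 hairpin and of its mature forms is not reported here. Matching and intervals were tested on simulated data. Python 3.11.15, numpy 2.4.6, scipy 1.17.1 and matplotlib 3.10.9 were used.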

Additional observations from a re-analysis of the deposited data

How the results depend on the processing

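No paired analysis was possible because each genotype had 1 library, and for the same reason no replicate could be left out. All values here are log2 ratios of null over f/f unless named otherwise, and the cause of each change was not tested. The summed level of the families, -2.14, kept its sign in every setting. It was -0.38 per transcript-matched read, -4.26 per snoRNA and snRNA read, -3.81 for reads of 18 to 23 nt, -0.75 for reads of 24 nt or more, -2.47 for reads that fit 1 hairpin and -2.57 without miR-466c-5p. In f/f most transcript-matched reads were miRNA reads, so that scale is not independent of the miRNAs. The median over species, -4.94, was -3.19 per transcript-matched read, -7.06 per snoRNA and snRNA read and -2.82 for reads of 24 nt or more, and -3.36 and -3.88 with at least 300 and 30 f/f reads. Species more than 2-fold lower numbered 28, but 20 of 29 per transcript-matched read (80.3% of all miRNA species), 6 of 7 for reads of 24 nt or more (72.4%), 13 of 13 for reads that fit 1 hairpin (87.5%) and 15 of 16 with at least 300 f/f reads (92.4%). The count of higher species, 1, was 0 per snoRNA and snRNA read, for reads of 18 to 23 nt, for reads that fit 1 hairpin and without miR-466c-5p. The null share of reads of 24 nt or more, 78.0%, was 80.1% for reads that fit 1 hairpin, 79.4% without reads that match another transcript, 72.6% without miR-669a/miR-669p-5p and 81.6% without miR-466c-5p. The f/f share, 29.8%, was 20.3% for reads that fit 1 hairpin, 31.0% for hairpins inside Sfmbt2, 30.9% without reads that match another transcript and 14.3% without miR-669a/miR-669p-5p. Leaving out these 2 species and grouping by the first 18 bases were chosen after seeing the data.

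Single species changed sign in 5 settings. With reads of 24 nt or more, values above 0 were found for miR-467c-5p (4.84), miR-467a/miR-467b-5p (4.79), miR-467e-5p (5.05), miR-467d-5p (2.08), miR-669d-5p (1.30), miR-669e-5p (1.08), miR-466f-5p (0.40), miR-669a/miR-669o-3p (0.15) and miR-466q-5p (0.15). Per transcript-matched read miR-467c-5p stood at 0.057 and miR-669c-5p at 0.063. Per snoRNA and snRNA read miR-466c-5p stood at -1.01, so the call of higher in null depends on this scale. With reads that fit 1 hairpin miR-669d-5p stood at no less than 4.80, on 53 null and 0 f/f reads (set to 3). Without reads that match another transcript miR-466g-3p stood at 0.023, on 9 null and 14 f/f reads. Species with few null reads are limited by counting: 7 of 29 had 0.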
